A study of Mus musculus with 16 samples.

Results

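Mouse embryonic fibroblasts under chemical neural reprogramming were compared at day 12 (D12) and day 4 (D4) of treatment, so that both sides of the comparison were treated cells and the untreated starting cells took no part in it. The comparison used 6 of the 16 libraries of the series, chosen by their labelled day, with 3 libraries at each day. The cells, called tdMEFs, were Fsp1-Cre/ROSA26tdTomato fibroblasts on a 129xC57BL6 background, in which Cre driven by Fsp1 (the gene S100a4) had switched on a red reporter, and the mark therefore follows any cell that has used that promoter. From D4 to D12 the cells were kept in M9, a serum-free neural medium at low oxygen with CHIR99021 (a GSK3 inhibitor that activates Wnt signalling), LDN193189 (a BMP receptor inhibitor), A83-01 (a TGF-beta receptor inhibitor), Hh-Ag1.5 (a Smoothened agonist that activates Hedgehog signalling), retinoic acid, SMER28 (an enhancer of autophagy), RG108 (a DNA methyltransferase inhibitor), Parnate (an inhibitor of the histone demethylase LSD1) and bFGF. Both groups therefore shared every agent, the genotype and the strain, and differed in the time spent under treatment. Untreated tdMEFs (D0), treated cells at day 8 (D8) and ciNSLCs, the neural stem-like cells derived from treated fibroblasts, are used only to place the genes that moved. Whether replicates were separate cultures is not given in the labels, and the spread behind the p-values may be technical.

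Fibroblasts keep their identity through mesenchymal transcription factors and a dense extracellular matrix, and conversion to a neural fate needs those programmes to give way to neural ones. Neural stem cells and radial glia are marked by Sox factors, Fabp7 and glutamate transporters, use Notch signalling to stay undifferentiated, and respond to FGF through ERK and its feedback inhibitors of the Sprouty family. Retinoic acid acts through nuclear receptors that switch on their own receptor gene Rarb and the Cyp26 enzymes that destroy retinoic acid, and low oxygen acts through hypoxia-inducible factors that raise glycolytic genes.

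The labels place replicate 1 of each day in batch 1 and replicates 2 and 3 in batch 2, and the batches stood apart. Library totals were 41027358, 39316681 and 29413932 counts at D4 and 42121337, 31653928 and 34262752 at D12. Levels are given as CPM, a gene's count relative to its library's total, scaled between libraries by the trimmed mean of M values (TMM). Where a gene had no count, up to 3 counts remain possible at 95% confidence, or 0.0611 to 0.112 CPM in these 6 libraries, which covers counting error only. Mitochondrial rRNA made up 52.7%, 21% and 16.5% of all counts at D4 and 33.2%, 28.4% and 27.2% at D12. The means were 30.1% ± 19.7 and 29.6% ± 3.17 (SD, n = 3), and a two-sided exact permutation test gave p = 1, where 3 against 3 libraries cannot go below 0.1. Replicates 2 and 3 of a day correlated with a Spearman rho of 0.992 at D4 and 0.995 at D12 across genes, and replicate 1 correlated with them at 0.938 to 0.942. Genes are not independent replicates, and these values describe the libraries. D4 replicate 1 was low for several fibroblast and Hedgehog genes, and D12 replicate 1 was high for neural genes, as the values below show. Fibroblast matrix and surface genes were measurable in sum in all 6 libraries: the 28 listed were all tested and summed to between 7360 and 18100 CPM at D4 and between 20500 and 24500 CPM at D12. The sum does not speak for each marker: in D4 replicate 1 Vim stood at 2668 and Sparc at 1190 CPM, but Thy1 at 20.2 CPM.

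With batch as a term, 2100 of 15592 genes tested (13.5%) changed between D4 and D12 at a Benjamini-Hochberg adjusted p under 0.05 in edgeR's quasi-likelihood test, 1098 of them higher at D12 (7.04% of the genes tested) and 1002 lower (6.43%). A list of genes with a share of calls near 13.5% is read as no result about that list. Of the genes called, 840 were higher and 640 lower by at least 1 on the log2 scale. The libraries of the 2 days did not overlap in 3684 genes (23.6%), and 4530 genes had an unadjusted p under 0.05. A block for the replicate number in place of batch called 823 genes (5.28%), 453 higher (2.91%) and 370 lower (2.37%). Without a term for batch 578 genes were called, and with the replicate 2 and 3 libraries of each day summed, so that each batch gave 1 library a day, 205. Leaving out D4 replicate 2, D4 replicate 3, D12 replicate 2 or D12 replicate 3 gave 574, 501, 962 and 720 genes, and leaving out D4 replicate 1 or D12 replicate 1, which leaves the contrast to batch 2, gave 6746 and 6800.

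In batch 2 the 2 libraries of a day were close to each other, and 6804 genes passed in batch 2 alone. Of the 6557 of these that were also tested in all 6 libraries, 63.2% had the same direction in batch 1. Over all genes tested 56.6% had the same direction in both batches, and a term for the day effect differing between batches passed for 4273 genes (27.4%), 466 of them among the 2100 called. That term rests on a single batch 1 library for each day. Of the 2100 called genes 2099 had the same direction in both batches, which the test with a batch term all but requires. The batches therefore enter each result below: levels are given for replicates 1, 2 and 3 in that order, the first of which is batch 1.

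**Figure D1:**
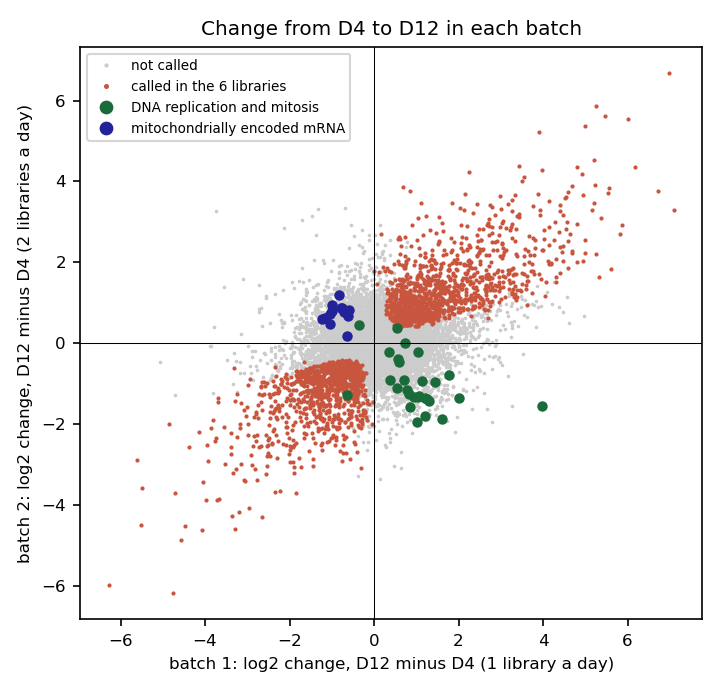
Each point is a tested gene, with its log2 change from D4 to D12 in batch 1 (1 library a day) on the x axis and in batch 2 (means of 2 libraries a day) on the y axis, after adding 0.5 CPM. Genes called in the 6 libraries (red) lie in the corners where both batches moved the same way, while DNA replication and mitosis genes (green) lie mostly to the lower right and mitochondrially encoded mRNAs (blue) to the upper left, where the batches moved in opposite directions.

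The 12 genes with the largest rise, among called genes with no overlap between days and a mean of at least 5 CPM, were of several kinds. Glial and neuronal genes made up most of them: the oligodendrocyte lineage factors Olig1 and Olig2, the brain proteoglycans neurocan (Ncan) and brevican (Bcan), the GABA transporter Slc6a11, the potassium channel Kcnc1, the brain-enriched ubiquitin ligase Trim9 and the neuronal membrane protein Sez6l. Trim9 stood at 1.46, 0.265 and 0.28 CPM at D4 and 126, 25.8 and 45.3 CPM at D12 (log2 change 6.75 ± 0.33, adjusted p 0.00056). Olig1 stood at 0.711, 0.224 and 0.305 CPM at D4 and 127, 5.94 and 13.9 CPM at D12 (log2 change 6.16 ± 0.62, adjusted p 0.00279). For Ncan the levels were 0.711, 0.407 and 1.09 CPM at D4 and 87, 21.8 and 28.5 CPM at D12 (log2 change 5.65 ± 0.52, adjusted p 0.00201). Every D4 library was below every D12 library for these 3 genes, and among the D12 libraries replicate 1 was the highest and replicate 2 the lowest. Slc6a11 had 3 counts in all at D4 and 1231 at D12, a ratio of 401 with an exact 95% counting interval of 137 to 1950, and its levels at D12 were 23.2, 2.28 and 5.49 CPM. Kcnc1 (log2 change 5.66 ± 0.46, adjusted p 0.00146), Bcan (log2 change 6.06 ± 0.71, adjusted p 0.00446), Olig2 (log2 change 5.99 ± 0.57, adjusted p 0.00235) and Sez6l (log2 change 6.93 ± 0.52, adjusted p 0.00121) had the same order of D12 libraries.

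The others were mesenchymal or secreted, apart from the enzyme Aldh1a3. Meox1, a homeobox factor of the embryonic somites, stood at 0.15, 0.0407 and 0.102 CPM at D4 and 28, 28.8 and 26.4 CPM at D12 (log2 change 8.22 ± 0.33, adjusted p 0.000358), the largest rise by this rule. Its D12 level was close to the 31.1 and 30.9 CPM of the D0 libraries. The matrix protein thrombospondin 4 (Thbs4) stood at 0, 0.427 and 0.102 CPM at D4 and 7.38, 16.6 and 12.2 CPM at D12 (log2 change 6.04 ± 0.63, adjusted p 0.00315), beside 22.5 and 16.9 CPM at D0. Both genes were near 0 at D4 and expressed at D0 and D12. Ccl11, the chemokine eotaxin that attracts eosinophils, stood at 0.936, 1.67 and 1.86 CPM at D4 and 181, 237 and 226 CPM at D12 (log2 change 7.18 ± 0.20, adjusted p 0.000171), against 0.877 and 1.62 CPM at D0. Aldh1a3, a retinaldehyde dehydrogenase that makes retinoic acid, stood at 1.68, 0.998 and 1.09 CPM at D4 and 83.5, 97 and 81.9 CPM at D12 (log2 change 6.15 ± 0.24, adjusted p 0.000358). Unlike the neural genes, Meox1, Ccl11 and Aldh1a3 were at similar levels in all 3 libraries of D12.

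**Figure D2:**
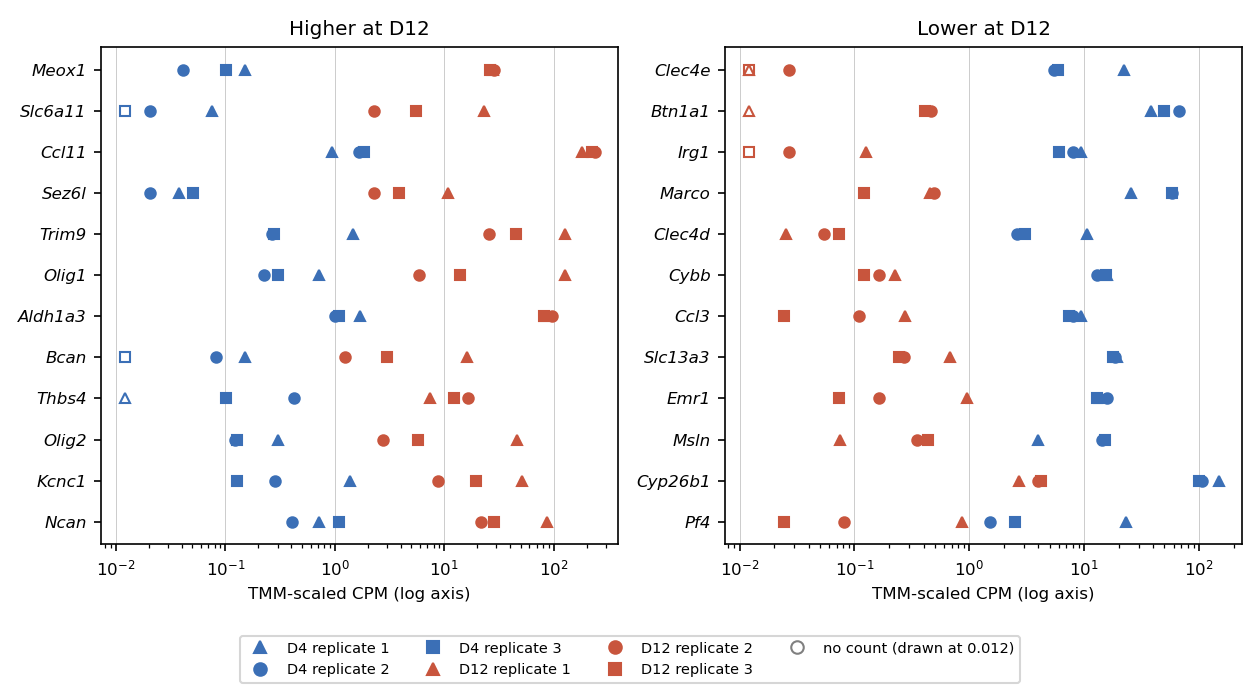
Levels of the 12 called genes with the largest rise (left) and the largest fall (right) in each library, as TMM-scaled CPM on a log axis, with triangles for replicate 1 (batch 1), circles for replicate 2 and squares for replicate 3, and open symbols for libraries without a count. The D4 (blue) and D12 (red) libraries do not overlap for any gene shown, which the rule required, and D12 replicate 1 lies far above the other D12 libraries for Olig1, Olig2 and Bcan but not for Meox1, Ccl11 or Aldh1a3.

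Macrophage genes led the 12 largest falls, and the myeloid list fell almost as a whole. Clec4e, a receptor for microbial glycolipids, had 1090 counts at D4 and 1 at D12, a ratio of 1110 with an exact 95% counting interval of 200 to 44000. The scavenger receptor Marco stood at 25.4, 57.7 and 57.6 CPM at D4 and 0.453, 0.488 and 0.121 CPM at D12 (log2 change -6.97 ± 0.52, adjusted p 0.00119). Cybb, the catalytic subunit of the phagocyte NADPH oxidase, stood at 15.6, 13 and 15.3 CPM at D4 and 0.227, 0.163 and 0.121 CPM at D12 (log2 change -6.43 ± 0.26, adjusted p 0.000358). Both were far apart between the days in each batch. Clec4d (log2 change -6.44 ± 0.59, adjusted p 0.00209), Irg1, which makes itaconate in activated macrophages (log2 change -7.27 ± 0.58, adjusted p 0.00139), Ccl3 (log2 change -6.01 ± 0.49, adjusted p 0.00146), Emr1, the macrophage antigen F4/80 (log2 change -5.50 ± 0.67, adjusted p 0.0051), and the chemokine Pf4 (log2 change -4.95 ± 0.40, adjusted p 0.00142) were of the same kind. The Emr1 call was lost without D4 replicate 3 (adjusted p 0.051). Of the 13 myeloid markers tested 12 fell and 1, Cd14, did not pass, with a median log2 change of -4.4 against -0.007 for all genes tested. The summed level of the list was 275 to 277 CPM at D4 and 16.8 to 17.5 CPM at D12. Lysozyme (Lyz2), the member with the lowest p, stood at 153, 180.5 and 186 CPM at D4 and 6.02, 6.11 and 5.49 CPM at D12 (log2 change -4.89 ± 0.15, adjusted p 0.000203). The next members by p were the complement gene C1qb, the integrin Itgam and the perforin-like Mpeg1 (log2 changes -4.48 ± 0.29, -4.43 ± 0.37 and -3.27 ± 0.28, adjusted p 0.000863, 0.00156 and 0.00167). With the replicate block 11 of the 13 fell, and without D4 replicate 2 or D4 replicate 3 9 and 8 did. It was 7 with the batch 2 libraries summed and 5 with 14 libraries and batch. In bulk libraries fewer cells of a type and less RNA per cell cannot be told apart. At D0 Lyz2 stood at 5.59 CPM in batch 1 and 2379 CPM in batch 2, and the starting libraries differed in the same direction for Itgam (0.793 and 215.6 CPM), C1qb (0.793 and 158.7 CPM) and Mpeg1 (1.5 and 190.5 CPM). At D4 the libraries were alike for Lyz2 but not for Pf4, which stood at 23.3, 1.51 and 2.52 CPM.

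The remaining large falls belonged to other functions. Btn1a1, a butyrophilin of milk fat globules, stood at 38.4, 66.9 and 49.3 CPM at D4 and 0, 0.461 and 0.413 CPM at D12 (log2 change -7.59 ± 0.58, adjusted p 0.00135). Msln, the mesothelial surface protein mesothelin, stood at 3.97, 14.2 and 15.1 CPM at D4 and 0.0755, 0.353 and 0.438 CPM at D12 (log2 change -5.29 ± 0.25, adjusted p 0.000489). Slc13a3, a dicarboxylate transporter, stood at 19.3, 18.5 and 17.9 CPM at D4 and 0.68, 0.271 and 0.243 CPM at D12 (log2 change -5.62 ± 0.32, adjusted p 0.000756). At D0 the means were 0.0653 ± 0.0553 CPM for Btn1a1 and 0.405 ± 0.573 CPM for Slc13a3 (SD, n = 2), so both stood higher at D4 than in the starting cells.

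Genes that respond directly to retinoic acid fell while the medium, per the labels, contained it on both days. Of the 10 tested members of the retinoic acid list 5 were lower at D12 and 5 did not pass, with a median log2 change of -1.48. Rarb, the retinoic acid receptor that is itself a direct target, stood at 115, 97.4 and 99 CPM at D4 and 19.4, 16.7 and 15.9 CPM at D12 (log2 change -2.59 ± 0.12, adjusted p 0.000489). Cyp26b1, which degrades retinoic acid, stood at 148, 107 and 99.6 CPM at D4 and 2.72, 3.96 and 4.21 CPM at D12 (log2 change -5.03 ± 0.28, adjusted p 0.000756). Stra6, the cell-surface receptor that takes up vitamin A, stood at 191, 284 and 278 CPM at D4 and 13.5, 57.8 and 46.6 CPM at D12 (log2 change -2.89 ± 0.33, adjusted p 0.00401). The binding protein Crabp2 stood at 18.7, 71.8 and 104 CPM at D4 and 1.59, 4.69 and 4.08 CPM at D12 (log2 change -4.10 ± 0.25, adjusted p 0.000765). Each of these 4 had D12 libraries far below all D4 libraries, and Rarb had nearly the same level in the 3 libraries of a day. Beside the fall of the target genes stands the rise of the synthesising enzyme Aldh1a3 given above. With the replicate block the count was also 5, and without D4 replicate 2 or D4 replicate 3 it was 4. At D8 Rarb stood at 158, 42.2 and 32 CPM, above the D4 level in batch 1 and between the days in batch 2.
The start of Rarb is shown because the receptor is known to act on its own gene through a direct repeat near the start. The window of 300 bases, from 250 before to 50 after the start in RefSeq's annotation, lies at chr14:16575427-16575726 of GRCm38.p6 on the minus strand, and the capitals mark a direct repeat, GNTCA followed by 6 bases of any kind and GNTCA again, searched on both strands.
Rarb: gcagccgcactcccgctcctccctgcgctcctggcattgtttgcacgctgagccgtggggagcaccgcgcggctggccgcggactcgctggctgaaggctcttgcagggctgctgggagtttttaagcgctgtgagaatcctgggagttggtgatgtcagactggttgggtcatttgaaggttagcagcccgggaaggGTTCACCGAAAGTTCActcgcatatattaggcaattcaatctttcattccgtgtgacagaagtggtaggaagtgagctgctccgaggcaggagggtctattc
Of the 14 listed genes 10 have a window. The repeat was found in 2 of these 10 (20%), Rarb and Cyp26a1, against 231 of 27025 windows (0.855%). Of the 4 with a window that fell, 1 held it, Rarb, and Cyp26a1 was not among those that fell. The repeat and the other motifs below were chosen after the values were seen. They were searched on both strands, and a match describes letters only.

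Targets of Wnt, BMP, TGF-beta and Hedgehog signalling, which M9 also addresses, gave fewer calls. Of 11 Wnt targets tested 3 fell and none rose, with a median log2 change of -1.19. That median was -0.16 in batch 1 and -1.41 in batch 2, -0.6 without D12 replicate 2, -0.72 without D12 replicate 3, -0.54 with the batch 2 libraries summed and -0.36 with 14 libraries and batch. Lef1, a transcription factor and target of Wnt signalling, stood at 8.01, 38.5 and 38.2 CPM at D4 and 2.19, 12.2 and 11.9 CPM at D12 (log2 change -1.74 ± 0.13, adjusted p 0.00133). The Wnt inhibitor Apcdd1 stood at 18, 17.4 and 16.6 CPM at D4 and 3.83, 3.55 and 4.52 CPM at D12 (log2 change -2.13 ± 0.17, adjusted p 0.00139). Tcf7 stood at 16.3, 24.9 and 22.8 CPM at D4 and 8.88, 7.6 and 8.46 CPM at D12 (log2 change -1.35 ± 0.18, adjusted p 0.00739). The Tcf7 call was lost without D4 replicate 2 or 3 (adjusted p 0.056 to 0.063). Axin2, the usual readout of Wnt signalling, stood at 10.4, 26.7 and 25.6 CPM at D4 and 10, 6.76 and 9.09 CPM at D12 and did not pass (log2 change -1.19 ± 0.36, adjusted p 0.0797). Its level fell in batch 2 and hardly moved in batch 1, and the day effect differed between batches (adjusted p 0.00265).

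Among 14 BMP targets 1 rose and 2 fell. The BMP antagonist Grem1 stood at 52.1, 112 and 104 CPM at D4 and 12.8, 45.1 and 43.1 CPM at D12 (log2 change -1.54 ± 0.19, adjusted p 0.00531). The inhibitory Smad6 stood at 2.06, 5.86 and 6.25 CPM at D4 and 1.08, 0.95 and 1.48 CPM at D12 (log2 change -1.89 ± 0.37, adjusted p 0.0231). Smad6 did not pass with any 1 of the 4 batch 2 libraries left out (adjusted p 0.081 to 0.12) or with the replicate block (0.07). Id1, a direct BMP target, stood at 9.51, 12.5 and 18.5 CPM at D4 and 16.1, 13.7 and 12.9 CPM at D12 (log2 change 0.09 ± 0.26, adjusted p 0.849). Among 13 TGF-beta targets 2 rose and 2 fell. The ligand Tgfb2 was lower at D12 (170.3, 265 and 219.5 CPM at D4 and 63.5, 67.6 and 59.7 CPM at D12, log2 change -1.77 ± 0.17, adjusted p 0.00228), as was Tgfb3 (log2 change -1.29 ± 0.14, adjusted p 0.00317). The matrix genes Tgfbi (log2 change 1.32 ± 0.30, adjusted p 0.0385) and Ltbp2 (log2 change 2.11 ± 0.53, adjusted p 0.0479) were higher. Neither rise passed with any 1 of the 4 batch 2 libraries left out (adjusted p 0.073 to 0.25) or with the replicate block (0.1 to 0.12). Among 13 Hedgehog genes 1, the co-receptor Cdon, passed (70.2, 101 and 76.5 CPM at D4 and 40.4, 50.4 and 45.3 CPM at D12, log2 change -0.87 ± 0.15, adjusted p 0.0151), and it was lower. It did not pass without D4 replicate 2 or D12 replicate 2 or 3 (adjusted p 0.063 to 0.095).

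The Hedgehog targets proper differed between batches. Ptch1, the Hedgehog receptor and a target of the pathway, stood at 34.5, 272 and 247 CPM at D4 and 268, 203 and 192 CPM at D12, so that batch 1 rose and batch 2 fell (log2 change 0.60 ± 0.69, adjusted p 0.613, day effect differing between batches with adjusted p 4.78e-05). Gli1 stood at 1.57, 31.7 and 35 CPM at D4 and 8.88, 29.8 and 34.5 CPM at D12 (log2 change 0.64 ± 0.48, adjusted p 0.427, adjusted p of the difference between batches 0.000284). Gli2 stood at 13.2, 58.9 and 57 CPM at D4 and 42.6, 42 and 41.7 CPM at D12 (log2 change 0.20 ± 0.42, adjusted p 0.796, adjusted p of the difference between batches 0.000127). D4 replicate 1 was the low library for each of the 3, and the batch 2 libraries of D4 and D12 were within a narrow range for Gli1.

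FGF and ERK target genes rose. Of 15 tested 11 were higher at D12 and none lower, with a median log2 change of 1.2. Spry1, Spry2 and Spry4 encode Sprouty proteins, which are induced by FGF and damp ERK signalling. Spry1 stood at 20.1, 22.4 and 18 CPM at D4 and 75.6, 86.9 and 85.9 CPM at D12 (log2 change 2.02 ± 0.14, adjusted p 0.00111). Spry2 stood at 69.8, 50.2 and 41 CPM at D4 and 239.8, 156 and 171 CPM at D12 (log2 change 1.81 ± 0.14, adjusted p 0.00136). Spry4 stood at 101, 22.5 and 22.6 CPM at D4 and 444, 222 and 231 CPM at D12 (log2 change 2.92 ± 0.28, adjusted p 0.00242). The immediate early factor Egr1 stood at 73.4, 76.7 and 76.8 CPM at D4 and 647, 369 and 397 CPM at D12 (log2 change 2.58 ± 0.21, adjusted p 0.00139). No D12 library overlapped a D4 library for these 4 genes. Among the members that did not pass were the ERK-responsive Fosl1 (log2 change -1.37, adjusted p 0.0982) and Dusp5 (log2 change 0.005, adjusted p 0.996). The replicate block gave 6 of 15, leaving out single batch 2 libraries 5 or 6, and summing the batch 2 libraries 3. In 7 of the 11 called members the day effect differed between batches, and in 9 D12 replicate 1 was above both other D12 libraries. The median change was 0.74 in batch 1 and 1.4 in batch 2. Elk1, an ERK-activated transcription factor, stood at 33.5, 24.9 and 24.6 CPM at D4 and 21.1, 22.4 and 24.4 CPM at D12 (log2 change -0.28 ± 0.17, adjusted p 0.315).

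Notch pathway genes also rose, 6 of 12 tested higher and none lower, with a median log2 change of 1.73. The receptor Notch1 stood at 16.9, 13.8 and 13.8 CPM at D4 and 65.7, 38.8 and 41.3 CPM at D12 (log2 change 1.66 ± 0.14, adjusted p 0.00146). Hes1, a transcriptional repressor that Notch switches on, stood at 6.21, 6.23 and 8.13 CPM at D4 and 24.9, 23.1 and 24.2 CPM at D12 (log2 change 1.80 ± 0.17, adjusted p 0.00201). The related repressor Hey1, which is also in the BMP list, was higher (0.711, 0.366 and 0.305 CPM at D4 and 12, 2.2 and 4.52 CPM at D12, log2 change 3.57 ± 0.39, adjusted p 0.00369), and so was Heyl (0.15, 0.998 and 0.712 CPM at D4 and 2.64, 4.99 and 4.81 CPM at D12, log2 change 2.86 ± 0.38, adjusted p 0.00672). Both were at or under 1 CPM in every D4 library. Heyl did not pass without D4 replicate 3 (adjusted p 0.068). With the replicate block 4 of 12 rose, and with single batch 2 libraries left out 3 to 5. Hes1 differed little between the batches on either day.

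**Figure D3:**
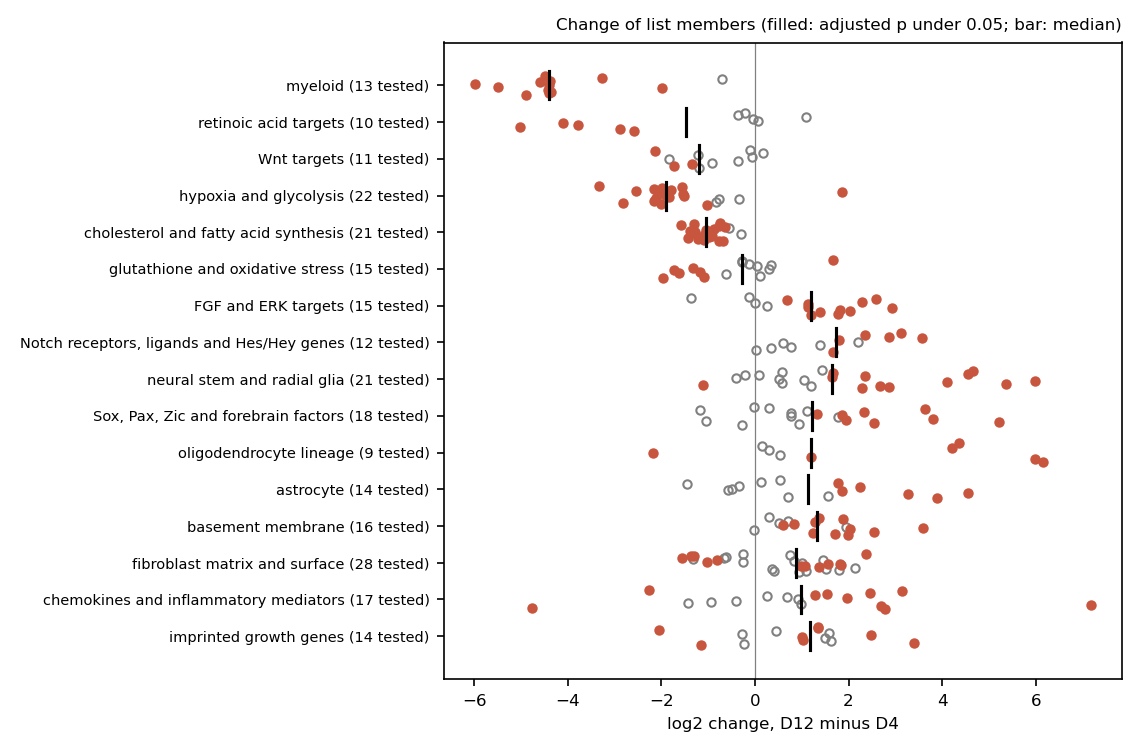
Log2 change from D4 to D12 of each tested member of the gene lists shown, filled where the adjusted p was under 0.05, with a bar at the list median. Myeloid, hypoxia and glycolysis, and cholesterol genes lie almost wholly below 0, FGF, Notch and basement membrane genes mostly above, and the neural and matrix lists spread to both sides.

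Hypoxia-responsive and glycolytic genes fell while the cells stayed at low oxygen. Of 22 tested 18 were lower at D12, 1 was higher and 3 (Egln1, Ndrg1 and Adm) did not pass, with a median log2 change of -1.9. Slc16a3, which exports lactate, stood at 25.2, 41.9 and 56.5 CPM at D4 and 2.17, 5.94 and 4.57 CPM at D12 (log2 change -3.34 ± 0.21, adjusted p 0.000782). Egln3, an oxygen sensor that marks hypoxia-inducible factors for destruction, stood at 77.5, 78.9 and 97.5 CPM at D4 and 24.4, 18.8 and 15.1 CPM at D12 (log2 change -2.15 ± 0.20, adjusted p 0.0023). Among glycolytic enzymes the phosphofructokinase Pfkp stood at 21.5, 44.4 and 47.8 CPM at D4 and 9.59, 14.7 and 13.7 CPM at D12 (log2 change -1.54 ± 0.15, adjusted p 0.00271). Pyruvate kinase (Pkm2) stood at 681, 808 and 937 CPM at D4 and 248, 189 and 184 CPM at D12 (log2 change -1.99 ± 0.21, adjusted p 0.00302). All 6 libraries separated by day for these 4 genes. The exception was the aldolase Aldoc, a gene of astrocytes that is also in the astrocyte list, which stood at 13.6, 11.3 and 17.1 CPM at D4 and 87.7, 29.8 and 49.5 CPM at D12 (log2 change 1.87 ± 0.34, adjusted p 0.0186). It did not pass without D4 replicate 2 or 3 or D12 replicate 3 (adjusted p 0.058 to 0.11). Vegfa, the angiogenic factor induced by hypoxia, stood at 73.8, 122 and 141 CPM at D4 and 23.6, 87.7 and 75.1 CPM at D12 (log2 change -1.01 ± 0.23, adjusted p 0.038). Vegfa did not pass with any 1 of the 4 batch 2 libraries left out (adjusted p 0.058 to 0.15) or with the replicate block (0.1). In 12 of the 19 called members the day effect differed in size between batches, and the median change was -1.1 in batch 1 and -2.12 in batch 2. The replicate block gave 12 lower members, omission of single batch 2 libraries 8 to 10, and summing the batch 2 libraries 2.
The starts of the 2 called members with the lowest p that have a window and a match are shown, since hypoxia-inducible factors bind a core of ACGTG; capitals mark the core on either strand. They lie at chr11:120948817-120949116 (plus strand) and chr12:54203825-54204124 (minus strand) of GRCm38.p6 and come from RefSeq.
Slc16a3: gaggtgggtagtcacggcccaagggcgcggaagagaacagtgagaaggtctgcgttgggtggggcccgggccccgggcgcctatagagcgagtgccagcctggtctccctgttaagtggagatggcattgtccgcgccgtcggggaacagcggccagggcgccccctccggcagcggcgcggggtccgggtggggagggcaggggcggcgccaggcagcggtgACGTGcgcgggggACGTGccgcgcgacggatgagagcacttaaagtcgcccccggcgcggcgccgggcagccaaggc
Egln3: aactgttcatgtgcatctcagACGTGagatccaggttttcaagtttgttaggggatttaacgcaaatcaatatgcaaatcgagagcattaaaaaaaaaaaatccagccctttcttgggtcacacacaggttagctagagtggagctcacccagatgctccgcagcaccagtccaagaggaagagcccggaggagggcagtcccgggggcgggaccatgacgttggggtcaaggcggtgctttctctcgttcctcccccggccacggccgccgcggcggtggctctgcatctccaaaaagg
The core was found in 13 of the 21 listed genes with a window (61.9%) and in 11 of the 18 that fell, against 19.7% of all windows.

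Cholesterol and fatty acid synthesis genes fell together, by less. Of 21 tested 19 were lower at D12 and none higher (median log2 change -1.05), while Dhcr7 and the regulator Srebf2 did not pass. The squalene epoxidase Sqle stood at 437, 172 and 169 CPM at D4 and 214, 78.2 and 80.4 CPM at D12 (log2 change -1.09 ± 0.12, adjusted p 0.00391). The stearoyl-CoA desaturase Scd1 stood at 1298, 392 and 362 CPM at D4 and 351, 144 and 139 CPM at D12 (log2 change -1.58 ± 0.17, adjusted p 0.00341). Fdps, which makes farnesyl pyrophosphate, stood at 139.6, 46.8 and 50.8 CPM at D4 and 46.1, 22.8 and 16.4 CPM at D12 (log2 change -1.42 ± 0.17, adjusted p 0.00501). Replicate 1 was the highest library at both days for these 3 genes, and its D12 level was near or above the D4 level of the other replicates although each batch fell, and 4 of the 19 called members had no overlap between days. Fdps did not pass without D4 replicate 3 (adjusted p 0.051). This list depended on the term for batch: 0 members passed without it or with batch 2 libraries summed, 8 with the replicate block and 4 to 10 with single batch 2 libraries left out, while the median moved between -0.82 and -1.16.
Nsdhl, a dehydrogenase of cholesterol synthesis (295, 71.5 and 68.1 CPM at D4 and 81.9, 32.5 and 30.1 CPM at D12, log2 change -1.40 ± 0.19, adjusted p 0.0067), is shown because it is the called member with the lowest p that has both a window and a match to CCAAT, the element of the cofactor NF-Y that sterol-responsive promoters share. The capitals mark it on either strand. Its window lies at chrX:72918271-72918570 of GRCm38.p6, plus strand, from RefSeq.
Nsdhl: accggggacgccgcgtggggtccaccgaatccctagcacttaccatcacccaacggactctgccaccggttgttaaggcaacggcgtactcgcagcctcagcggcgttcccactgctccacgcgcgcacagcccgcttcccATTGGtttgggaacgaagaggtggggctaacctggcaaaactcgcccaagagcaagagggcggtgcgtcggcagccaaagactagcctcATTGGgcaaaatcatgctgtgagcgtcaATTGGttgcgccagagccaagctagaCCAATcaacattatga
CCAAT was found in 11 of 14 listed genes with a window (78.6%) and in 9 of the 11 of these that fell, against 37.9% of all windows. The sterol element core TCACCCCAC was found in 1 of the 14 (7.14%, against 0.522% of all windows), Hmgcs1, which was not tested.

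Among other stress and metabolic lists, the glutathione and oxidative stress genes moved in part. The integrated stress response, autophagy and DNA methylation lists had shares of calls near or below the 13.5% of all genes tested. They are read as no result about those lists. Of 15 glutathione and oxidative stress genes 6 fell and 1 rose. The lower count was 3 without D4 replicate 2, and 2 without D4 replicate 3 or without a batch term. Glutathione reductase (Gsr) stood at 104, 60.6 and 51.8 CPM at D4 and 29.2, 18.8 and 20.5 CPM at D12 (log2 change -1.63 ± 0.14, adjusted p 0.00177). Thioredoxin reductase (Txnrd1) stood at 179, 126 and 110.2 CPM at D4 and 72.8, 54 and 57.6 CPM at D12 (log2 change -1.16 ± 0.13, adjusted p 0.00418). The quinone reductase Nqo1 was lower (126, 39 and 45.4 CPM at D4 and 18.4, 14.7 and 14.2 CPM at D12, log2 change -1.97 ± 0.28, adjusted p 0.00855), as was the heme oxygenase Hmox1 (log2 change -1.10 ± 0.16, adjusted p 0.00932), and both are targets of Nrf2. The secreted glutathione peroxidase Gpx3 was higher (25.9, 47.4 and 48.4 CPM at D4 and 58.1, 174 and 188 CPM at D12, log2 change 1.66 ± 0.19, adjusted p 0.00446). The calls were lost without D4 replicate 3 (adjusted p 0.067) for Nqo1, without D4 replicate 2 or 3 (adjusted p 0.05 to 0.065) for Hmox1 and without D4 replicate 3 (adjusted p 0.053) for Gpx3. Of 14 integrated stress response genes 1 fell, the cystine transporter Slc7a11 (284, 32.9 and 33.3 CPM at D4 and 33.1, 10.6 and 9.85 CPM at D12, log2 change -2.18 ± 0.31, adjusted p 0.00868), for which D4 replicate 1 was by far the highest library. It did not pass without D4 replicate 2 or 3 (adjusted p 0.051 to 0.06). Among 17 autophagy and lysosome genes 3 fell, the autophagy receptor Sqstm1 and the lysosomal proteases Ctsb and Ctsl, with log2 changes of -1.21 to -1.26, and none of the 3 passed with any 1 of the 4 batch 2 libraries left out (adjusted p 0.052 to 0.14) or with the replicate block (0.058 to 0.11). These proteases are abundant in macrophages, and the myeloid markers fell with them from 275 to 277 CPM to 16.8 to 17.5 CPM in sum; their part in the fall was not tested. Among 13 DNA methylation and Lsd1 genes 0 passed in edgeR's test, 1 had an unadjusted p under 0.05, DESeq2 called 1 and limma voom 0, and the day effect differed between batches for 10 of them.

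Basement membrane genes rose, and the wider fibroblast matrix list was split. Of 16 basement membrane genes 11 rose and none fell, with a median log2 change of 1.33. Lama2, a laminin chain, stood at 1.91, 13.4 and 10.8 CPM at D4 and 66.5, 99.6 and 92.2 CPM at D12 (log2 change 3.59 ± 0.44, adjusted p 0.00524). Perlecan (Hspg2) stood at 199, 243 and 226 CPM at D4 and 542, 627 and 563 CPM at D12 (log2 change 1.37 ± 0.14, adjusted p 0.00291). Nidogen 2 (Nid2) stood at 40.6, 48.3 and 33.2 CPM at D4 and 184, 146 and 127 CPM at D12 (log2 change 1.88 ± 0.19, adjusted p 0.00302). The collagen chain Col4a5 stood at 9.1, 41.4 and 35.4 CPM at D4 and 25.8, 80.6 and 87.1 CPM at D12 (log2 change 1.24 ± 0.14, adjusted p 0.00399). The D12 libraries of Hspg2 and Nid2 lay above all D4 libraries, while for Col4a5 the rise within each batch was of about equal size and replicate 1 stood lower on both days. Lama2 did not pass without D4 replicate 3 (adjusted p 0.061). The replicate block gave 5 members, and the omission of single batch 2 libraries 3 to 5.

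Among the 28 fibroblast matrix and surface genes 7 rose and 5 fell (median log2 change 0.88). Decorin (Dcn), a small proteoglycan of collagen fibrils, stood at 314, 811 and 854 CPM at D4 and 1765, 2410 and 2312 CPM at D12 (log2 change 1.82 ± 0.24, adjusted p 0.00702). Lumican (Lum) stood at 120.1, 263 and 268 CPM at D4 and 646, 839 and 742 CPM at D12 (log2 change 1.84 ± 0.21, adjusted p 0.00439). Periostin (Postn) stood at 43.4, 503 and 452 CPM at D4 and 132, 1554 and 1221 CPM at D12 (log2 change 1.55 ± 0.17, adjusted p 0.00341). Fibronectin (Fn1) stood at 494, 1037 and 894 CPM at D4 and 937, 2328 and 2016 CPM at D12 (log2 change 1.08 ± 0.18, adjusted p 0.0138). Each rose in every replicate, with replicate 1 the lowest at both days. Against these, the mesenchymal transcription factor Prrx1 fell (431, 358 and 319 CPM at D4 and 135, 143 and 151 CPM at D12, log2 change -1.37 ± 0.17, adjusted p 0.00495). Twist2, of the same kind, fell as well (16.2, 14.2 and 15.9 CPM at D4 and 6.85, 5.7 and 6.37 CPM at D12, log2 change -1.30 ± 0.15, adjusted p 0.00434), opposite in direction to these 4 matrix genes. The matrix enzyme Lox on the same list fell too (log2 change -1.03, adjusted p 0.0231), but did not pass with the replicate block (0.074). Dcn did not pass without D4 replicate 2 (adjusted p 0.054), nor Fn1 with any 1 of the 4 batch 2 libraries left out (adjusted p 0.055 to 0.082). With single batch 2 libraries left out 2 to 4 members were higher and 2 or 3 lower. The median was 1.61 in batch 1 and 0.11 in batch 2, and the day effect differed between batches for 20 of the 28. Collagen 1 (Col1a1) stood at 283, 2286 and 1806 CPM at D4 and 2089, 2228 and 2063 CPM at D12 and did not pass (log2 change 0.93 ± 0.59, adjusted p 0.346, adjusted p of the difference between batches 0.000219). The surface antigen Thy1 did not pass either (20.2, 296 and 410.5 CPM at D4 and 150.4, 343 and 332 CPM at D12, log2 change 0.83 ± 0.61, adjusted p 0.42, adjusted p of the difference between batches 0.00019). D4 replicate 1 was the low library for both. S100a4, the gene whose promoter drove the lineage mark, stood at 20.1, 31.9 and 52.2 CPM at D4 and 16.6, 11.7 and 12.2 CPM at D12 (log2 change -1.33 ± 0.36, adjusted p 0.06).

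Related mesenchymal lists moved in part, and most of the calls named were lost with at least 1 of the 4 batch 2 libraries left out. Of 19 mesodermal and EMT transcription factors 1 rose, Meox1, and 4 fell, the T-box factors Tbx15 and Tbx5, the bone factor Runx2 and Osr1, with log2 changes of -0.84 to -1.47. None of these falls passed with any 1 of the 4 batch 2 libraries left out (adjusted p 0.068 to 0.18) or with the replicate block (0.068 to 0.11). Of 7 cartilage and tendon genes tested 3 rose, Thbs4, the chondrogenic factor Sox9 (35.9, 37.9 and 40 CPM at D4 and 127, 80.2 and 92.2 CPM at D12, log2 change 1.36 ± 0.17, adjusted p 0.0059) and fibromodulin (Fmod, log2 change 1.94 ± 0.36). Among 18 contractile genes 3 rose and 1 fell. Transgelin (Tagln) stood at 11.9, 11.6 and 11.6 CPM at D4 and 36.8, 50.3 and 43.9 CPM at D12 (log2 change 1.88 ± 0.15, adjusted p 0.00139). Desmin (Des, log2 change 1.65 ± 0.32) and the smooth muscle actin Actg2 (log2 change 2.07 ± 0.48) were higher, and tropomyosin Tpm1 was lower (log2 change -0.84 ± 0.17). Sox9 did not pass without D4 replicate 2 (adjusted p 0.052), and Fmod, Des, Actg2 and Tpm1 did not pass with any 1 of the 4 batch 2 libraries left out (adjusted p 0.063 to 0.19) or with the replicate block (0.07 to 0.099). Acta2, another smooth muscle actin, stood at 201, 167 and 184 CPM at D4 and 250.4, 163 and 165 CPM at D12 (log2 change 0.03 ± 0.14, adjusted p 0.913). Among 16 metalloproteinases and inhibitors 5 rose and 2 fell. The membrane protease Mmp15 was higher (6.81, 4.03 and 3.05 CPM at D4 and 36.2, 11.6 and 16.6 CPM at D12, log2 change 2.12 ± 0.22, adjusted p 0.00306) and Mmp11 lower (29.7, 62.6 and 64.2 CPM at D4 and 12.6, 20.3 and 19.7 CPM at D12, log2 change -1.53 ± 0.14, adjusted p 0.00176). The inhibitors Timp3 and Timp1 and the protease Mmp9 were also higher (log2 changes 0.99 ± 0.14, 1.38 ± 0.22 and 0.88 ± 0.15) and the inhibitor Timp2 lower (-0.62 ± 0.14). Those calls were lost without D12 replicate 2 or 3 (adjusted p 0.051 to 0.054) for Timp3, without D4 replicate 2 (adjusted p 0.077) for Timp1, and for Mmp9 and Timp2 with any 1 of the 4 batch 2 libraries left out (adjusted p 0.056 to 0.22) or with the replicate block (0.057 to 0.11).

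Neural stem and radial glia genes rose, 11 of 21 tested higher and 1 lower, with a median log2 change of 1.65. Fabp7, the brain lipid-binding protein of radial glia, stood at 26.4, 3.05 and 3.76 CPM at D4 and 852, 118 and 207 CPM at D12 (log2 change 5.37 ± 0.31, adjusted p 0.000765). The glutamate transporter Slc1a3 stood at 4.94, 4.24 and 5.36 CPM at D4 and 164, 71.6 and 120.4 CPM at D12 (log2 change 4.55 ± 0.29, adjusted p 0.000877). The receptor phosphatase Ptprz1 stood at 1.95, 1.47 and 1.58 CPM at D4 and 114, 21.8 and 30.4 CPM at D12 (log2 change 4.66 ± 0.41, adjusted p 0.00174). For 10 of the 11 genes that rose, D12 replicate 1 was above both other D12 libraries, and for Fabp7 it held several times their level. Sox2, a factor of neural stem cells, stood at 1.53, 0.489 and 0.661 CPM at D4 and 12.2, 1.52 and 2.79 CPM at D12 (log2 change 2.29 ± 0.38, adjusted p 0.0146). For Pax6, of forebrain progenitors, the levels were 0.225, 0.814 and 0.61 CPM at D4 and 4.08, 2.25 and 4.13 CPM at D12 (log2 change 2.67 ± 0.50, adjusted p 0.0203). Sox2 was low in batch 2 on both days, where D12 replicate 2 lay just below D4 replicate 1. The calls were lost without D4 replicate 2 or 3 or D12 replicate 3 (adjusted p 0.067 to 0.086) for Sox2 and without D4 replicate 2 or 3 or D12 replicate 3 (adjusted p 0.077 to 0.12) or with the replicate block (0.07) for Pax6. Nestin (Nes), the intermediate filament used to mark neural stem cells, stood at 40.2, 127 and 93.3 CPM at D4 and 199, 165 and 187 CPM at D12 and did not pass (log2 change 1.19 ± 0.35, adjusted p 0.0744). Prom1 (CD133) fell (27.2, 24.2 and 24.1 CPM at D4 and 10.8, 11.5 and 13 CPM at D12, log2 change -1.11 ± 0.15, adjusted p 0.00686). This call was lost without D4 replicate 3 (adjusted p 0.051). With the replicate block 8 genes rose, and with single batch 2 libraries left out 5 to 11.

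Of 18 Sox, Pax, Zic and forebrain factors 8 rose and none fell (median log2 change 1.22). Sox8 stood at 1.01, 0.285 and 0.28 CPM at D4 and 55.5, 6.16 and 10.3 CPM at D12 (log2 change 5.21 ± 0.33, adjusted p 0.000863). Sox6 stood at 3.59, 1.57 and 1.02 CPM at D4 and 27.2, 4.96 and 8.51 CPM at D12 (log2 change 2.55 ± 0.30, adjusted p 0.0049). Pou3f3 stood at 0.973, 0.448 and 0.28 CPM at D4 and 16.9, 2.82 and 4.86 CPM at D12 (log2 change 3.63 ± 0.36, adjusted p 0.00261). Pax2 stood at 0.112, 0.183 and 0.0763 CPM at D4 and 1.61, 1.19 and 2.65 CPM at D12 (log2 change 3.81 ± 0.54, adjusted p 0.00846). Sox6 did not pass without D4 replicate 3 (adjusted p 0.053), nor Pax2 without D4 replicate 2 or 3 (adjusted p 0.054 to 0.068). In the oligodendrocyte list 5 of 9 tested rose and 1 fell. Beside Olig1 and Olig2, the ganglioside synthase St8sia1 was higher (5.8, 1.43 and 1.12 CPM at D4 and 67, 30.5 and 42.4 CPM at D12, log2 change 4.36 ± 0.35, adjusted p 0.00139). Bcas1 was higher too (0.225, 0.0814 and 0.0254 CPM at D4 and 8.46, 0.434 and 0.705 CPM at D12, log2 change 4.20 ± 0.60, adjusted p 0.00841). The myelin gene Mbp was lower (1.76, 1.2 and 1.68 CPM at D4 and 0.302, 0.434 and 0.292 CPM at D12, log2 change -2.17 ± 0.39, adjusted p 0.0174). Bcas1 did not pass without D4 replicate 3 (adjusted p 0.072), nor Mbp with any 1 of the 4 batch 2 libraries left out (adjusted p 0.051 to 0.1) or with the replicate block (0.068). All 5 genes that rose were highest in D12 replicate 1. In the astrocyte list 6 of 14 rose and none fell. The lists share members that rose, so their counts are not separate. Slc1a3 is in the neural stem and astrocyte lists, Olig2 in the neural stem and oligodendrocyte lists, and Notch1 in the Notch and neural stem lists. The glutamate transporter Slc1a2 stood at 5.05, 1.41 and 0.966 CPM at D4 and 35.9, 11.8 and 15.8 CPM at D12 (log2 change 3.27 ± 0.27, adjusted p 0.00147). The water channel Aqp4, low throughout, stood at 0.0749, 0.326 and 0.254 CPM at D4 and 1.89, 3.17 and 4.57 CPM at D12 (log2 change 3.88 ± 0.37, adjusted p 0.00235). The FGF receptor Fgfr3 was higher (log2 change 1.76 ± 0.31, adjusted p 0.016) but did not pass with any 1 of the 4 batch 2 libraries left out (adjusted p 0.065 to 0.085) or with the replicate block (0.067). The counts for the Sox, oligodendrocyte and astrocyte lists were 5, 4 and 4 higher with the replicate block, and 2 to 6, 3 to 5 and 3 to 5 with single batch 2 libraries left out. Their summed levels were 167 to 199, 24.1 to 28.6 and 695 to 1030 CPM at D4 and 192 to 311, 73.6 to 297 and 751 to 1290 CPM at D12.

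Genes of mature neurons moved in both directions. Of 15 tested 3 rose and 2 fell, and 1 rose with the replicate block. The synaptic gene Snap25 stood at 1.01, 0.794 and 0.763 CPM at D4 and 6.47, 9.44 and 8.78 CPM at D12 (log2 change 3.25 ± 0.27, adjusted p 0.00148). The synaptic vesicle protein Syt1 was higher (log2 change 1.78 ± 0.35, adjusted p 0.0229). Rbfox3, the neuronal nuclear antigen, had 2 counts in all at D4 and 68 at D12, a ratio of 33.3 with an exact 95% counting interval of 8.86 to 280. Its D12 levels of 0.428, 0.353 and 0.924 CPM were all under 1 CPM. Syt1 did not pass without D4 replicate 3 or D12 replicate 2 or 3 (adjusted p 0.073 to 0.11) or with the replicate block (0.063), nor Rbfox3 without D4 replicate 2 or 3 or D12 replicate 3 (adjusted p 0.075 to 0.12) or with the replicate block (0.062). Against these, the adhesion molecule Nrcam stood at 127, 76.7 and 63.4 CPM at D4 and 22.2, 13.4 and 13.5 CPM at D12 (log2 change -2.44 ± 0.14, adjusted p 0.000756). The microtubule regulator Stmn2 stood at 8.46, 16.3 and 18.6 CPM at D4 and 1.08, 2.04 and 2.46 CPM at D12 (log2 change -2.97 ± 0.18, adjusted p 0.000782), both lower. Among 18 channel genes 7 rose and 3 fell, and 4 or 5 rose and 1 fell with single batch 2 libraries left out: the glial potassium channel Kcnj10 stood at 1.01, 0.346 and 0.483 CPM at D4 and 21.6, 7.95 and 14.8 CPM at D12 (log2 change 4.64 ± 0.34, adjusted p 0.00118). The AMPA receptor subunit Gria1 stood at 1.53, 1.73 and 1.2 CPM at D4 and 20.8, 10.7 and 23.2 CPM at D12 (log2 change 3.59 ± 0.35, adjusted p 0.00265). The potassium channel Kcnd3 (log2 change 3.01 ± 0.41) and the calcium channel Cacna1g (log2 change 1.42 ± 0.14, adjusted p 0.0026) were higher, and Kcnj2 (log2 change -1.99 ± 0.25, adjusted p 0.00543) and Cacna1c (log2 change -0.83 ± 0.15) lower. Kcnd3 did not pass without D4 replicate 2 or 3 (adjusted p 0.055 to 0.068), nor Cacna1c with any 1 of the 4 batch 2 libraries left out (adjusted p 0.072 to 0.12) or with the replicate block (0.068). Of 25 axon guidance and Eph genes 6 rose and 1 fell. The higher count was 2 without D4 replicate 2 or D4 replicate 3 and 1 without a batch term. The semaphorin receptor Nrp1 was higher (60.3, 89.7 and 71.4 CPM at D4 and 262, 224 and 213 CPM at D12, log2 change 1.65 ± 0.19, adjusted p 0.00418), and so was the ephrin receptor Ephb1 (0.973, 0.305 and 0.127 CPM at D4 and 11.7, 2.09 and 4.25 CPM at D12, log2 change 3.72 ± 0.43, adjusted p 0.00446). Slit1 (log2 change 3.13 ± 0.49) and Epha5 (3.86 ± 0.61) were also higher and the ephrin Efnb2 lower (-0.97 ± 0.18). The latter calls were lost without D4 replicate 2 or 3 (adjusted p 0.061 to 0.071) for Slit1, without D4 replicate 2 or 3 (adjusted p 0.052 to 0.089) for Epha5, and for Efnb2 with any 1 of the 4 batch 2 libraries left out (adjusted p 0.053 to 0.093) or with the replicate block (0.066).

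Several secreted signals rose strongly. Among 17 chemokines and inflammatory mediators 8 rose and 2 fell. The higher count was 5 without D4 replicate 2 or D4 replicate 3, and 4 without a batch term or with the batch 2 libraries summed. The monocyte chemoattractants Ccl2 and Ccl7 rose beside Ccl11: Ccl2 stood at 39.6, 53.1 and 80 CPM at D4 and 314, 415 and 444 CPM at D12 (log2 change 2.78 ± 0.20, adjusted p 0.00118). Ccl7 stood at 7.93, 12.2 and 21.2 CPM at D4 and 67.8, 94.6 and 94.7 CPM at D12 (log2 change 2.68 ± 0.25, adjusted p 0.00219). Cxcl16 was higher (log2 change 1.97 ± 0.22, adjusted p 0.00357). The chemokine Ccl5 was lower (1.27, 2.91 and 4.25 CPM at D4 and 0.151, 0.0543 and 0.0729 CPM at D12, log2 change -4.76 ± 0.63, adjusted p 0.00674), as was the acute-phase gene Saa3 (log2 change -2.26 ± 0.33, adjusted p 0.00898). The falls did not pass without D4 replicate 2 or 3 (adjusted p 0.052 to 0.053) for Ccl5 and without D4 replicate 2 (adjusted p 0.055) for Saa3. Ccl2 and Ccl7, which attract monocytes, were higher on the day on which the summed myeloid markers were lower, while the chemokines Ccl5 and Ccl3 were lower on that day. Of 24 genes of the natriuretic peptide, IGF and growth factor list 7 rose and 3 fell. The higher count was 4 with the replicate block and 3, 4, 4 and 3 without D4 replicate 2, D4 replicate 3, D12 replicate 2 or D12 replicate 3. The IGF-binding proteins Igfbp7 and Igfbp2, the C-type natriuretic peptide Nppc and the EGF family ligand Hbegf were higher. Igfbp7 stood at 26.4, 99.7 and 98.5 CPM at D4 and 254, 744 and 716 CPM at D12 (log2 change 3.00 ± 0.15, adjusted p 0.000638). Igfbp2 stood at 5.32, 2.87 and 3.86 CPM at D4 and 128, 25.1 and 43.8 CPM at D12 (log2 change 3.76 ± 0.36, adjusted p 0.00242). For Nppc the levels were 4.08, 0.957 and 1.3 CPM at D4 and 89.3, 11.8 and 13.2 CPM at D12 (log2 change 3.81 ± 0.26, adjusted p 0.00107), and the change of Hbegf was 1.29 ± 0.19 on the log2 scale (adjusted p 0.00952). Igfbp2 and Nppc were highest in D12 replicate 1, while Igfbp7 was lowest there among the D12 libraries. The growth factor Pdgfc was lower (31.4, 94 and 91.6 CPM at D4 and 10.4, 13.4 and 14.8 CPM at D12, log2 change -2.36 ± 0.25, adjusted p 0.00306), and so was the natriuretic clearance receptor Npr3 (12.2, 15.3 and 15.4 CPM at D4 and 2.92, 1.38 and 1.46 CPM at D12, log2 change -2.98 ± 0.31, adjusted p 0.00318). Hbegf did not pass without D4 replicate 2 or D12 replicate 3 (adjusted p 0.053 to 0.06).

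Imprinted growth genes moved in both directions, 6 of 14 higher and 2 lower. With D4 replicate 2, D4 replicate 3, D12 replicate 2 or D12 replicate 3 left out 3, 2, 3 and 3 were higher, and 1 was lower in each case. Mest stood at 168, 127 and 84.2 CPM at D4 and 1180, 585 and 470.4 CPM at D12 (log2 change 2.47 ± 0.23, adjusted p 0.00219). Dlk1, a Notch-like inhibitor of adipocyte differentiation, stood at 3.74, 10.7 and 8.16 CPM at D4 and 105, 69.5 and 59.1 CPM at D12 (log2 change 3.39 ± 0.44, adjusted p 0.00609). The zinc finger gene Zim1 stood at 7.15, 9.49 and 10.6 CPM at D4 and 18.5, 28.2 and 22.5 CPM at D12 (log2 change 1.34 ± 0.15, adjusted p 0.00409), and Gnas was higher (log2 change 1.34 ± 0.24). The cell cycle inhibitor Cdkn1c stood at 248, 110.0 and 110.3 CPM at D4 and 80.4, 26.7 and 19.4 CPM at D12 (log2 change -2.06 ± 0.20, adjusted p 0.00239). The growth-limiting RNA H19 stood at 3052, 2804 and 3336 CPM at D4 and 1053, 1683 and 1497 CPM at D12 (log2 change -1.16 ± 0.22, adjusted p 0.0208), both known to restrain growth. Dlk1 did not pass without D4 replicate 3 (adjusted p 0.067), and Gnas and H19 did not with any 1 of the 4 batch 2 libraries left out (adjusted p 0.051 to 0.11) or with the replicate block (0.062 to 0.071).

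Markers of further cell types moved in part, with few genes tested in each list. Of 10 endothelial genes tested 3 rose, endoglin (Eng, log2 change 1.34 ± 0.17), endomucin (Emcn, 1.12, 5.96 and 5.75 CPM at D4 and 35.6, 33.2 and 32.9 CPM at D12, log2 change 3.18 ± 0.49, adjusted p 0.0108) and VE-cadherin (Cdh5, log2 change 1.38 ± 0.26). The list summed to 21.6 to 32.1 CPM at D4 and 70.7 to 75.4 CPM at D12. Of 9 epithelial genes tested 2 fell, Krt19 (26.1, 46.2 and 60.3 CPM at D4 and 4.53, 9.12 and 9.09 CPM at D12, log2 change -2.55 ± 0.15, adjusted p 0.000765) and Spint2 (log2 change -1.22 ± 0.26). The lipocalin Lcn2 rose (1.42, 0.713 and 1.42 CPM at D4 and 26.1, 6.84 and 6.42 CPM at D12, log2 change 3.14 ± 0.42, adjusted p 0.00677). Keratin 18 (Krt18) stood at 137, 34.5 and 47 CPM at D4 and 11.7, 31 and 30.1 CPM at D12 and did not pass (log2 change -1.38 ± 0.66, adjusted p 0.231). The calls were lost without D4 replicate 2 (adjusted p 0.05) for Eng, without D4 replicate 2 or 3 (adjusted p 0.067 to 0.08) for Emcn, without D4 replicate 2 (adjusted p 0.061) for Lcn2, and for Cdh5 and Spint2 with any 1 of the 4 batch 2 libraries left out (adjusted p 0.1 to 0.17) or with the replicate block (0.074 to 0.1). All 5 adipocyte genes tested passed, in both directions: Cd36, Fabp4 and Pparg were lower (log2 changes -3.16 ± 0.48, -1.94 ± 0.33 and -1.06 ± 0.23), Cebpa and Lpl higher (1.45 ± 0.22 and 1.97 ± 0.36). Each call was lost without D4 replicate 3 (adjusted p 0.071 to 0.12). Without D4 replicate 2 all but Fabp4 were lost, without D12 replicate 3 all but Lpl, and Pparg also without D12 replicate 2. With the replicate block Fabp4, Pparg and Lpl did not pass (adjusted p 0.053, 0.11 and 0.063). Of 5 neural crest and Schwann genes tested 1 rose, the neurotrophin receptor Ngfr (1.87, 0.794 and 0.559 CPM at D4 and 32.5, 6.73 and 5.98 CPM at D12, log2 change 3.53 ± 0.27, adjusted p 0.00136). Of 6 pluripotency genes tested 1 rose, Mycn (1.5, 1.77 and 1.78 CPM at D4 and 9.04, 8.55 and 9.31 CPM at D12, log2 change 2.40 ± 0.19, adjusted p 0.00139). Of 3 germline genes tested 1 rose, the meiotic cohesin subunit Stag3 (log2 change 1.29 ± 0.28), which did not pass with any 1 of the 4 batch 2 libraries left out (adjusted p 0.11 to 0.19) or with the replicate block (0.11). Of 2 muscle genes tested 0 passed in edgeR's test or limma voom, 1 had an unadjusted p under 0.05 and DESeq2 called 1, and that list summed to 2.17 to 4.17 CPM at D4 and 1.3 to 2.37 CPM at D12.

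Proliferation genes went in opposite directions in the 2 batches. Of 28 DNA replication and mitosis genes 1 passed, E2f1, which was lower (14.6, 15.6 and 22.8 CPM at D4 and 9.19, 7.35 and 7.92 CPM at D12, log2 change -1.12 ± 0.22, adjusted p 0.0238). The median change was 0.99 in batch 1 and -1.21 in batch 2, 3 of the 28 genes had the same direction in both, and the day effect differed between batches for 25 of them. Mki67, the proliferation marker Ki-67, stood at 3.78, 177 and 120.1 CPM at D4 and 67, 62.7 and 38.5 CPM at D12 (log2 change -0.17 ± 1.25, adjusted p 0.944, adjusted p of the difference between batches 0.000186), so that it rose in batch 1 and fell in batch 2. D4 replicate 1 held by far the least. E2f1 did not pass with any 1 of the 4 batch 2 libraries left out (adjusted p 0.082 to 0.11) or with the replicate block (0.06). The 13 mitochondrially encoded mRNAs moved the other way, with 0 called by edgeR, DESeq2 or limma voom and 0 at an unadjusted p under 0.05, medians of -0.82 in batch 1 and 0.77 in batch 2, 0 of 13 in the same direction and all 13 differing between batches. The share of mitochondrial rRNA given above followed the same pattern, falling in batch 1 and rising in batch 2. Cell cycle inhibitors and p53 targets gave 2 higher and 1 lower of 16. Fas and Plk2 were higher (log2 changes 0.96 ± 0.14 and 0.59 ± 0.14) and Cdkn1c lower. Cdkn1a, a p53 target, stood at 1179, 659 and 827 CPM at D4 and 1114, 920.2 and 949 CPM at D12 (log2 change 0.18 ± 0.19, adjusted p 0.567). Cdkn2a stood at 7.71, 4.21 and 5.85 CPM at D4 and 7.02, 9.14 and 6.9 CPM at D12 (log2 change 0.40 ± 0.27, adjusted p 0.383). Fas and Plk2 did not pass with any 1 of the 4 batch 2 libraries left out (adjusted p 0.057 to 0.22), and Plk2 did not pass with the replicate block (0.13).

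Of 26 cytosolic ribosomal protein genes 4 fell, among them Rps2, Rplp0 and Rps4x (log2 changes -1.01 ± 0.25, -0.67 ± 0.17 and -0.97 ± 0.24, adjusted p 0.0447, 0.0467 and 0.0474). None of these 3 passed when any 1 batch 2 library was left out or with the replicate block, where the adjusted p was at least 0.074. All 26 log2 changes of this list were negative, with a median of -0.58. Reads of ribosomal protein genes can be shared with processed pseudogenes, so these counts are uncertain. Of 18 interferon-stimulated genes 3 fell, Ifit2, Rsad2 and Bst2, with log2 changes of -1.02 to -1.75. The calls were lost without D4 replicate 2 or 3 or D12 replicate 2 (adjusted p 0.051 to 0.096) for Rsad2, and for Ifit2 and Bst2 with any 1 of the 4 batch 2 libraries left out (adjusted p 0.056 to 0.19). The shares of calls in the ribosomal protein and interferon lists were near the 13.5% of all genes tested. They are read as no result about those lists.

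At D8 the level lay between those of D4 and D12 for 890 of the 1098 genes that rose (81.1%) and 898 of the 1002 that fell (89.6%), against 49.2% of all genes tested, with the called genes chosen by their D4 and D12 levels. At the median the genes that rose had covered 43.9% of their log2 change by D8 and those that fell 41.4%. Some genes made most of their move after D8: Meox1 stood at 0.65, 0.43 and 0.135 CPM at D8, Ccl11 at 1.61, 8.33 and 5.96 CPM and Aldh1a3 at 1.7, 1.96 and 1.6 CPM. Aldh1a3 was close to its D4 level, Ccl11 in batch 2 was already above it, and Meox1 was under 1 CPM at D4 and D8. Fabp7 stood at 228, 23.8 and 30 CPM at D8, in between in each batch.

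**Figure D4:**
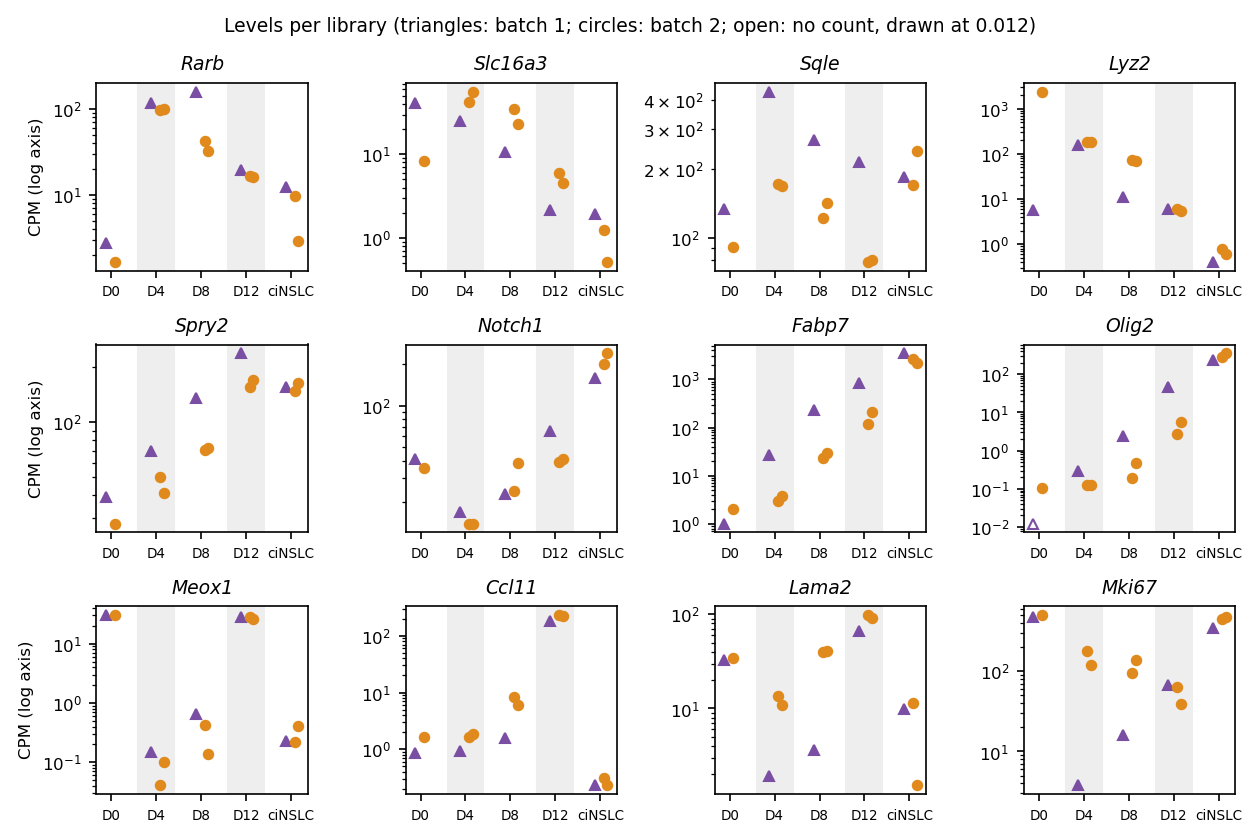
Levels of selected genes in the D0, D4, D8, D12 and ciNSLC libraries, as TMM-scaled CPM on log axes whose ranges differ by gene, with triangles for batch 1, circles for batch 2, an open symbol for no count and shading on the days compared. Fabp7, Olig2 and Notch1 rise from D4 to D12 and are higher still in ciNSLC, Meox1 and Ccl11 rise at D12 and are low in ciNSLC, and Mki67 runs in opposite directions in the batches.

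The ciNSLC libraries and the untreated D0 libraries share no library with this comparison, and placed its genes against the later lines. In ciNSLC against D0, 1896 of 14957 genes tested (12.7%) were higher and 2314 (15.5%) lower, counts that ranged in sum from 978 without D0 replicate 2 to 5790 without ciNSLC replicate 3. Among the 14344 genes tested in both, 403 were higher in both comparisons. They were 38.8% of the 1038 that rose from D4 to D12, where 11.9% of all these genes were higher in ciNSLC. They were also 23.7% of the 1703 higher in ciNSLC, where 7.24% of all these genes rose from D4 to D12. Another 311 were lower in both, 34.5% of the 902 that fell, where 15.4% of all were lower in ciNSLC. These 311 were 14% of the 2214 lower in ciNSLC, where 6.29% of all fell from D4 to D12. The opposite pairs were 192 genes that rose from D4 to D12 and were lower in ciNSLC than at D0 (18.5% of those that rose), beside 68 that fell and were higher (7.54% of those that fell). With no batch term in either fit 249 genes had the same direction in both, against 714.

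Many of the glial and neural genes named above, but not all, were of the first kind. Fabp7 stood at 1 and 2.04 CPM at D0 and 3523, 2698 and 2163 CPM in ciNSLC (log2 change 10.86 ± 0.72, adjusted p 0.00148). Trim9 stood at 0.605 and 0.706 CPM and 497, 503 and 497 CPM (log2 change 9.56 ± 0.33, adjusted p 0.000569). Notch1 (log2 change 2.36 ± 0.27, adjusted p 0.00519), Spry2 (log2 change 2.28 ± 0.23, adjusted p 0.00346) and Mmp15 (log2 change 6.89 ± 0.29, adjusted p 0.000729) were higher in ciNSLC as well. For Fabp7 and Olig1 the D12 level lay above D4 and below the lines: the D12 mean of Fabp7 was 392 ± 401 CPM (SD, n = 3) against 2795 ± 685 CPM in ciNSLC, and that of Olig1 49.1 ± 67.9 against 843 ± 68 CPM. Of the opposite kind were matrix and mesenchymal genes that rose between the days and were low in the lines. Dcn stood at 165 and 330.5 CPM at D0 and 0.882, 2.75 and 2.37 CPM in ciNSLC (log2 change -7.22 ± 0.26, adjusted p 0.000569). Postn stood at 3197 and 6169 CPM and 0.627, 3.32 and 5.55 CPM (log2 change -11.20 ± 0.73, adjusted p 0.00147). Meox1 stood at 0.232, 0.222 and 0.406 CPM in ciNSLC (log2 change -6.76 ± 0.34, adjusted p 0.000922). Thbs4 (log2 change -6.97 ± 0.62, adjusted p 0.0027) behaved likewise. Ccl11 was lower in ciNSLC too (log2 change -2.27 ± 0.53, adjusted p 0.0326), but was low in both groups. It stood at 0.877 and 1.62 CPM at D0 and 0.232, 0.31 and 0.237 CPM in ciNSLC. Tcf7, which fell from D4 to D12, was higher in ciNSLC than at D0 (log2 change 3.89 ± 0.38, adjusted p 0.00342). Rarb (log2 change 2.04 ± 0.61, adjusted p 0.0652) did not pass there. Prom1 also fell from D4 to D12 and was higher in ciNSLC than at D0 (log2 change 5.66 ± 0.75, adjusted p 0.00736). Among genes that rose, Heyl was lower in ciNSLC (log2 change -3.12 ± 0.47, adjusted p 0.0104). Snap25, Gria1, Ngfr and Syt1 rose but did not pass there (adjusted p 0.0509, 0.5, 0.671 and 0.799). Pax2 was not tested there and stood at 0, 0.0443 and 0.102 CPM in ciNSLC.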

How the data were processed

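Total RNA of the 16 libraries was amplified and sequenced with paired ends (NuGEN Ovation RNA-seq system v2, Illumina HiSeq 2500), per the labels' protocols; the kit primes with random hexamers and poly-T, no ribosomal depletion step is described, and no strand setting is given in the sources used here, so antisense and overlapping genes cannot be told apart. The submitters' processing notes name TopHat2 2.0.13, the mm9 build, featureCounts from Subread, and edgeR. The deposited values used are non-normalized counts per gene, per the file headers, and the deposited feature lengths were not used; the table held 48 further columns of per-sample values that were not used. Identifiers without a gene name held 0.0349% to 0.151% of a library's counts.

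From these counts, levels were computed as CPM with TMM factors over all 16 libraries, and genes were tested with edgeR 4.0.16 in R 4.3.3 (quasi-likelihood with robust dispersion, filterByExpr, TMM, day and batch as terms, Benjamini-Hochberg adjusted p under 0.05). Values after ± beside log2 changes are approximate standard errors. Each is the absolute change divided by the square root of the test's F statistic. For changes within a batch 0.5 CPM was added. Where a symbol had several identifiers, the lists used that with the highest summed count, and the named genes that with the lowest p among those tested. ciNSLC was tested against D0 in the same way, and the day effect was compared between batches by an interaction term.

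The members and the 42 gene lists (732 members, 724 found, 607 tested) were chosen with earlier results of these data known. Genes named are the 12 with the largest change in each direction among called genes without overlap between days and with a mean of at least 5 CPM on the higher day, up to 4 called members of a list with the lowest p in its main direction and 2 against it, and a fixed panel. Others named (Nsdhl, Hmgcs1, Dhcr7, Srebf2, Egln1, Ndrg1, Adm, Cd14, Fosl1, Dusp5, Cyp26a1, Lox, Vim and Sparc) are list members that were chosen after their values were seen. Some genes that this rule names are not reported here.

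Same-numbered D4 and D12 libraries deviated together from their day's mean, with correlations across genes of 0.409, 0.369 and 0.299 for replicates 1, 2 and 3. All exceed 0.1, the limit set for treating them as pairs, but crossing replicates 2 and 3 gave 0.37 and 0.291, so the numbers within batch 2 carry no pairing beyond the batch. Promoter windows came from RefSeq (GRCm38.p6), matched by symbol. The scripts were tested on simulated data. Alternatives were DESeq2 1.42.0, limma 3.58.1 (voom), other scalings, filters and terms, other sets of libraries, and the omission of each library.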

Additional observations from a re-analysis of the deposited data

How the results depend on the processing

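The 2100 genes changed between D4 and D12 became 578 without a batch term, 675 with 14 libraries and no batch term, 6804 in batch 2 only, 205 with the batch 2 libraries of a day summed (chosen after seeing the data), and 501 to 6800 with 1 library left out. With the replicate block in place of batch, 823 genes were called, and 128 of the 165 called genes that the text names kept their call. DESeq2 scaling (2094), upper-quartile scaling (2119), no filter (2447), a minimum of 1 CPM (2097), limma voom (2361), the DESeq2 test (3149), D4, D8 and D12 together (2634), 14 libraries with batch (1400) and removal of mitochondrial rRNA (2104) stayed within 1.5 times of it. The 4210 genes of ciNSLC against D0 became 6403 with 14 libraries and batch and 978 to 5790 with 1 library left out, and the 714 genes shared in direction became 249 with no batch term in both fits.

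Of the 165 named calls none reversed under the alternatives run, and 91 passed whichever of the 6 libraries was left out. Without a batch term 79 were lost, with the batch 2 libraries summed 103, and without D4 replicate 2, D4 replicate 3, D12 replicate 2 or D12 replicate 3 61, 65, 40 and 47. Genes that did not pass reversed as follows, on the log2 scale. In batch 2 only the change was -0.06 for Gli1, -0.48 for Gli2, -0.41 for Ptch1, -0.23 for Id1, -0.08 for Thy1 and -0.11 for Acta2. With 1 library left out it ranged from -0.05 to 1.03 for Gli1, -0.47 to 0.48 for Gli2, -0.4 to 1.14 for Ptch1, -0.22 to 0.37 for Id1, -0.07 to 1.27 for Thy1, -0.1 to 0.11 for Acta2 and -1.55 to 1.17 for Mki67. Without a batch term it was -0.04 for Gli2, and with 14 libraries and no batch term -0.03. Mki67 was at 0.21 with D4, D8 and D12 together and at 1.2 with the batch 2 libraries summed. The cause was not tested. Counts of 3 or fewer limit the ratios given for Slc6a11, Clec4e and Rbfox3, and 1 batch 1 library a day limits every comparison between batches.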
